A study of Mus musculus with 8 samples.

Results

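The genes examined here encode the machinery that carries proteins into mitochondria and folds them there. They were taken by name: every listed gene called Timm or Tomm with a number, Timmdc1, and 15 named partners from the import motor, the oxidative relay, the outer-membrane sorting machinery, the presequence peptidase and the folding machine of the matrix. The rule found 40 of the 28295 listed genes. Of these, 38 had a mean of at least 0.5 FPKM (fragments per kilobase of exons and 1000000 mapped fragments) and were tested. The other two, Tomm6 and Tomm6os, lay below that level in every library, and Tomm6os is an antisense transcript that came in through its name.

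Most mitochondrial proteins are made in the cytosol from nuclear genes. They pass the outer membrane through the TOM complex, after which the TIM23 complex takes proteins with a presequence to the matrix and inner membrane, the small TIM chaperones and the TIM22 complex take carrier proteins to the inner membrane, the SAM complex inserts barrel proteins into the outer membrane, and an oxidative relay folds cysteine-rich proteins between the membranes. In the matrix a motor built around the HSP70 protein mortalin pulls the chain in, a peptidase removes the presequence, and the HSP60 chaperonin folds the product. In white fat this machinery supplies the mitochondria with the enzymes of respiration and fatty acid oxidation.

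RNA was sequenced from epididymal white fat of male mice kept on a Western diet for 8 weeks and fasted for 6 h. The KO group carried AdipoQ-Cre and Cul3-flox/flox, so that Cre was driven by the promoter of adiponectin, a gene of adipocytes. The WT group carried Cul3-flox/flox, with no Cre named, so floxed Cul3 alleles were common to both. Each group had 4 libraries, called here KO1 to KO4 and WT1 to WT4. The labels do not tie libraries to animals, so p-values measure the spread between libraries.

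Cul3, the targeted gene, whose product cullin 3 holds ubiquitin ligases together, did not fall in the KO-labelled libraries. It stood at 10.7, 11.2, 13.2 and 13.0 FPKM in the KO-labelled libraries and at 11.4, 9.66, 12.4 and 11.5 FPKM in WT. The groups overlapped, with a log2 fold change of 0.09 ± 0.10 (limma, adjusted p = 0.52; exact two-sided permutation test, p = 0.429), and after scaling to equal FPKM sums Cul3 was called higher (0.37, limma adjusted p = 0.0477). Every direction given below therefore rests on the labels alone.

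With M for 1000000 reads, the depth recovered from the steps of low FPKM values was 15.2 to 18.7 M reads in listed genes in KO-labelled libraries, against 17.7 to 19.7 M in WT. Listed genes took up 64.5% ± 1.46 of what KO-labelled FPKM values were divided by, against 76.7% ± 1.92 for WT (SD, n = 4 each). A tested member held between 43 (Timm8a1) and 7502 (Hspa9) reads in a library. The groups therefore differ in the share of reads behind the table, and scaling each library to the same FPKM sum moved the median change of all tested genes to 0.24, against −0.02 as deposited. KO1 held the highest sum of 6 markers of epididymis and testis, 215 FPKM, of which Crisp1 alone made 203 FPKM. The sum was at most 17.2 FPKM in the other 3 KO-labelled libraries and 53.0 FPKM in WT2. Of these markers, Prm1 and Tnp1 were highest in KO3 (12.8 and 3.97 FPKM, against 1.08 and 0 FPKM in KO1). WT2 and WT1 held liver transcripts (465 and 128 FPKM over 6 markers). Calls that depend on WT1 and WT2 are named with their values without both.

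Of the 38 tested members, 21 were called lower in the KO-labelled libraries and 0 higher (limma on log2(FPKM + 0.5), Benjamini-Hochberg adjusted p under 0.05 over 14400 genes). Over all tested genes 18.6% were called lower and 11.7% higher. At an unadjusted p under 0.05, 28 members were lower and 1 was higher. The called falls ran from 16.5% to 56.7% of the WT mean, and 12 of them were at least 0.5 on the log2 scale. By role, 3 of 5 tested genes of the TIM23 complex were called lower, 5 of 8 of the TIM22 complex and small TIM chaperones, 2 of 2 of the oxidative relay, 3 of 7 of the import motor, 3 of 4 of the peptidase and chaperonin, 3 of 8 of the TOM complex and its receptors and 1 of 3 of the SAM complex, besides Timmdc1. The median log2 fold change was −0.43 over the members and −0.02 over all tested genes. In 22 members every KO-labelled library lay below every WT library, a pattern found in 19.1% of all tested genes. Exonic bases are shared with another gene in 20 of the 40 members, 9 of them among the 21 called, and with no strand setting known such genes can share reads.

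The number of calls depended on the scaling, while the distance of the members' median from that of all tested genes was −0.41 as deposited and −0.41 after scaling to equal FPKM sums. The scaled medians were −0.17 over the members and 0.24 over all tested genes. Of all tested genes, 8.26% were then called lower and 29.3% higher. Of the members, 11 were then called lower and 3 higher: Timm21 (0.54, limma adjusted p = 0.0104), Samm50 (0.49, adjusted p = 0.0055) and Timm44 (0.30, adjusted p = 0.0216). Without WT1 and WT2 the members' median was −0.32 and 6 were called lower, against 7.19% of all tested genes, and 0 higher, against 5.01%. These 6 were Timm8b, Timm22, Timm23, Gfer, Hspd1 and Timmdc1. The other 15 called genes lost their call without WT1 and WT2, with log2 fold changes between −0.87 and −0.24 and limma adjusted p values between 0.0596 and 0.194. Leaving out KO1 as well, a choice made after the data were seen, gave a median of −0.35, with 6 called lower and 0 higher, against 5.26% and 3.94% of all tested genes. Timm8b, Timm22, Timm23 and Gfer were among these 6, Timm17a and Timm13 were the other two, and Hspd1 (limma adjusted p = 0.0626) and Timmdc1 (0.0508) were not called. With FPKM scaled to the reads in listed genes, also chosen later, 10 members were called lower and 3 higher, against 8.80% and 29.2% of all tested genes. Array weights, which give less weight to libraries that stand apart, called 28 members lower, against 23.4% of all tested genes, and 0 higher, against 16.9%. The added genes were Dnajc19, Hspa9, Hspe1, Timm10, Tomm20, Tomm34 and Tomm40l. Voom on the recovered reads, chosen later, called 24 lower, against 19.1% of all tested genes, and 0 higher, against 12.7%, and added Hspa9, Hspe1 and Tomm40l.

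**Figure D1:**
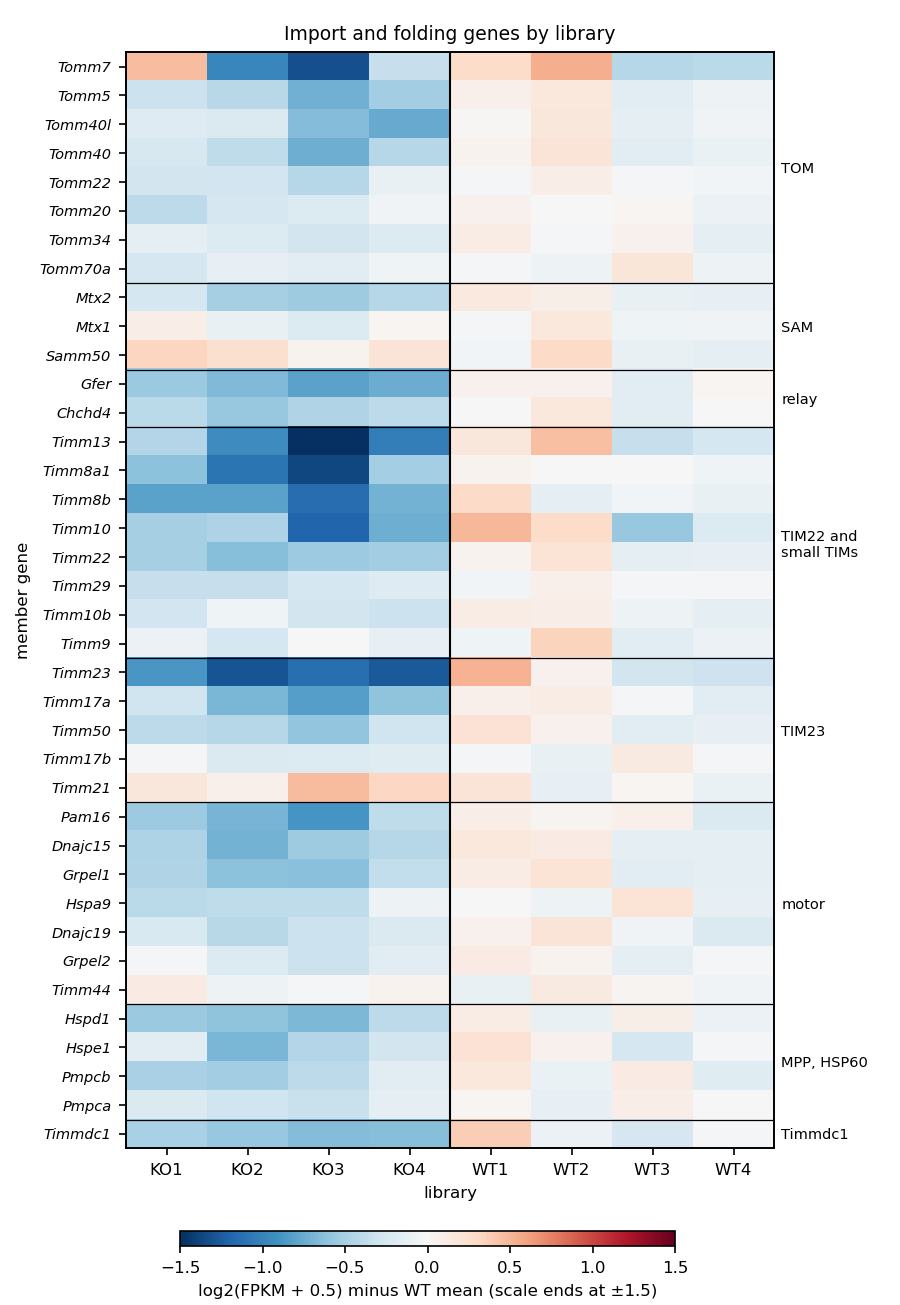
Level of each tested member in each library, as log2(FPKM + 0.5) minus the mean of the 4 WT libraries, with rows grouped by role and ordered by change within a role. The 4 KO-labelled columns on the left are mostly blue, with Timm21 and Samm50 as exceptions, and WT1 and WT2 are the reddest WT columns.

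Markers of some cell types in the tissue differed between the groups as well. All 8 adipocyte markers were called lower, with sums of 1832 to 2443 FPKM in the KO-labelled libraries and 4168 to 5618 FPKM in WT. After scaling to equal sums 6 of the 8 were called lower, and without WT1 and WT2 3 were. Of 8 endothelial markers 7 were called lower (4 after scaling, and 4 without WT1 and WT2), with sums of 125 to 148 FPKM in the KO-labelled libraries and 182 to 255 FPKM in WT. Of 10 macrophage markers 4 were called higher and 0 lower (7 higher after scaling, and 2 without WT1 and WT2), and their sums overlapped, at 564 to 1357 FPKM in the KO-labelled libraries and 440 to 1262 FPKM in WT. Of 6 fibroblast and progenitor markers 1 was called lower and 0 higher. Their sums overlapped, at 162 to 192 FPKM in the KO-labelled libraries and 138 to 228 FPKM in WT. Only 1 of 6 lymphocyte markers was tested, Nkg7, and it was called higher (1.65, limma adjusted p = 0.0027). In whole tissue, fewer cells of a type and less RNA per cell cannot be told apart, and the part of cell makeup in the members' change was not tested. The adipocyte sums by library were 2190, 1942, 1832 and 2443 FPKM in KO1 to KO4 and 5492, 5618, 4424 and 4168 FPKM in WT1 to WT4. Within each group the libraries with higher adipocyte sums also had higher members' medians, apart from WT1 and WT2, which changed places. Both measures are taken from FPKM as deposited and share each library's scaling. The FPKM sums over all listed genes ordered the WT libraries as the adipocyte sums did. In the KO-labelled libraries they differed from that order only in that KO1 stood above KO4. What lies behind these orders was not tested. Of 5 brown-fat markers 3 were tested, and 2 of these were called lower. They were Cox8b (3.34 ± 1.43 FPKM in the KO-labelled libraries and 16.9 ± 5.20 FPKM in WT; −2.19, limma adjusted p = 0.0016) and Cidea (0.311 ± 0.117 FPKM in the KO-labelled libraries and 1.41 ± 0.65 FPKM in WT; −1.19, limma adjusted p = 0.0057). The sums of the 5 ran from 3.13 to 7.37 FPKM in the KO-labelled libraries and from 11.8 to 26.4 FPKM in WT. Ucp1, which defines brown fat, was at or near 0 in every library, at most 0.0629 FPKM.

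Promoter sequence was examined for letters bound by factors linked to mitochondrial genes, stress chaperones and the NRF2 pathway that a cullin 3 ligase controls. RefSeq promoters of build GRCm38.p6 (250 bases before to 50 after a start) were found for 35 of the 40 members. The NRF1 core GCATGCGC, read on both strands, was present in Grpel1 and Timm13, which is 5.71% of the 35 and 3.05% of all 27025 promoters. The paired heat-shock unit GAANNTTC was present in Hspd1, Hspe1 and Timm9 (8.57%, against 9.04% of all promoters). Hspd1 and Hspe1 were matched through the same site, read from opposite strands. A second Hspd1 window, from another start (chr1:55088194-55088493, minus strand), held no match. The antioxidant response core TGACNNNGC was present in Mtx2 and Tomm20 (5.71%, against 14.0% of all promoters). No member's window held more than 1 of the 3 motifs, and a match is a description of letters, not of binding. Shown are the bases before the start of the 2 members with the NRF1 core, of Timm23, the member with the largest fall, which held none of the 3, and of the stretch shared by Hspd1 and Hspe1, which face away from each other. Capitals mark the motif, which began 36 bases before the start in Grpel1 (chr5:36464935-36465184, plus strand), 192 bases before it in Timm13 (chr10:80900970-80901219, minus strand) and 84 bases before the start of Hspe1 in the shared stretch (chr1:55087933-55088147, plus strand). The Timm23 window is chr14:32201892-32202141, minus strand.
Grpel1: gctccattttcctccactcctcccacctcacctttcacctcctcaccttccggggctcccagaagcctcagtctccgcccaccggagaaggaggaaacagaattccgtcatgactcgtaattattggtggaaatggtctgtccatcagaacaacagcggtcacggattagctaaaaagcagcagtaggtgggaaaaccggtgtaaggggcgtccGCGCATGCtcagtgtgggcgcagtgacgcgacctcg
Timm13: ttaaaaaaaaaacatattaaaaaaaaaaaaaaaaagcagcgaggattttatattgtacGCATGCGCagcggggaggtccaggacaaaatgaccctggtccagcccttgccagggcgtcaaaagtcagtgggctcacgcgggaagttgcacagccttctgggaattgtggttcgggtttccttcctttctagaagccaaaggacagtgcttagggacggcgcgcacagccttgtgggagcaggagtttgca
Timm23: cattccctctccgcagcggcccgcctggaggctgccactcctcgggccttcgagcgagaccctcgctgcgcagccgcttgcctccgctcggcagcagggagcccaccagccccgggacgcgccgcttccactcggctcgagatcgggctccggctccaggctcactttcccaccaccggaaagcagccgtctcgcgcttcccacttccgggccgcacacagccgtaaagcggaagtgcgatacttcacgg
Hspd1 and Hspe1: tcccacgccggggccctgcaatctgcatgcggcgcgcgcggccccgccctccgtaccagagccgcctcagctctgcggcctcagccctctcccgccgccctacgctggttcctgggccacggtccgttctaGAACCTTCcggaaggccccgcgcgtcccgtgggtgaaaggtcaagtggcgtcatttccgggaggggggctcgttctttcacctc

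The TIM23 complex held the member with the largest fall. Timm23 (chromosome 14, 32180162 to 32201898, minus strand), which forms the channel, stood at 12.9, 9.46, 10.7 and 9.66 FPKM in the KO-labelled libraries and at 34.6, 25.0, 19.7 and 19.2 FPKM in WT. The groups did not overlap, and WT1 was the highest library. The fall was −1.14 ± 0.19 on the log2 scale (limma, adjusted p = 0.0029), and leaving out WT1 and WT2 left it at −0.85 (limma adjusted p = 0.013). Timm17a, which lines the channel with TIM23, stood at 4.57, 3.37, 3.02 and 3.6 FPKM in the KO-labelled libraries and at 6.08, 6.26, 5.67 and 5.03 FPKM in WT. All KO-labelled libraries lay below all WT libraries, with KO1 nearest to WT (−0.61 ± 0.12, limma adjusted p = 0.0066), but the call was lost without WT1 and WT2 (−0.51, limma adjusted p = 0.0838). Timm50, the receptor that hands presequences to the channel, stood at 11.1, 10.8, 9.65 and 11.9 FPKM in the KO-labelled libraries and at 17.2, 15.4, 13.2 and 13.5 FPKM in WT. These groups did not overlap either (−0.43 ± 0.10, limma adjusted p = 0.0155). The Timm50 call was lost after scaling to equal sums (−0.17, limma adjusted p = 0.163) and without WT1 and WT2 (−0.29, limma adjusted p = 0.124).

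The other two TIM23 subunits were not called. Timm17b, the second form of the TIM17 subunit, stood at 4.51, 3.86, 3.89 and 3.98 FPKM in the KO-labelled libraries and at 4.53, 4.20, 5.08 and 4.53 FPKM in WT, with overlap (−0.16 ± 0.08, limma adjusted p = 0.174; 0.10 after scaling to equal sums). Timm21, which links TIM23 to TOM and to the respiratory chain, averaged 9.23 ± 1.19 FPKM in the KO-labelled libraries and 7.63 ± 0.82 FPKM in WT (SD, n = 4 each). Its change of 0.26 ± 0.11 was the largest positive one among the members (limma, adjusted p = 0.103).

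Timm22 (chromosome 11, 76406952 to 76416292, plus strand), the channel for carrier proteins, had a narrow spread in the KO-labelled libraries, at 3.87, 3.46, 3.72 and 3.78 FPKM, against 5.89, 6.62, 5.13 and 5.15 FPKM in WT. No library of either group crossed into the other (−0.55 ± 0.09, limma adjusted p = 0.0029). Timm29, a further subunit of the same complex, stood at 8.64, 8.60, 9.18 and 9.68 FPKM in the KO-labelled libraries and at 10.8, 11.7, 11.0 and 10.9 FPKM in WT. Its fall was small and the groups did not overlap (−0.29 ± 0.07, limma adjusted p = 0.0133), but the call was lost after scaling to equal sums (−0.03, limma adjusted p = 0.816) and without WT1 and WT2 (−0.27, limma adjusted p = 0.1005). Timm10b, also of this complex, averaged 1.18 ± 0.14 FPKM in the KO-labelled libraries and 1.48 ± 0.17 FPKM in WT and was not called (limma, adjusted p = 0.126).

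The small TIM chaperones, which escort carrier proteins across the space between the membranes, included 3 genes with falls between 0.86 and 0.99 on the log2 scale. Timm8b (chromosome 9, 50603910 to 50605320, plus strand) stood at 18.7, 18.7, 14.6 and 19.9 FPKM in the KO-labelled libraries and at 40.1, 29.9, 31.8 and 30.5 FPKM in WT. The highest KO-labelled library was far below the lowest WT library (−0.86 ± 0.13, limma adjusted p = 0.0016). Timm8a1, whose human counterpart is mutated in a deafness and dystonia syndrome, stood at 2.44, 1.61, 1.25 and 2.64 FPKM in the KO-labelled libraries and at 4.14, 4.0, 4.02 and 3.81 FPKM in WT. WT varied little and the KO-labelled libraries varied more, with KO3 lowest (−0.89 ± 0.18, limma adjusted p = 0.0067). Without WT1 and WT2 the Timm8a1 call was lost, at a similar fold change (−0.87, limma adjusted p = 0.0713). Timm13, the partner of the TIM8 proteins, averaged 11.8 ± 3.78 FPKM in the KO-labelled libraries and 23.7 ± 6.38 FPKM in WT, without overlap (−0.99 ± 0.25, limma adjusted p = 0.018). Its call was lost without WT1 (limma adjusted p = 0.0526) and when WT2 was left out too (limma adjusted p = 0.152). Timm10 and Timm9, which form the chaperone that works with TIM22, were not called. Timm10 averaged 4.79 ± 1.13 FPKM in the KO-labelled libraries and 8.40 ± 2.87 FPKM in WT (−0.72 ± 0.25, limma adjusted p = 0.0598; 0.0248 without WT3 and 0.0263 with array weights), and Timm9 averaged 2.02 ± 0.18 FPKM in the KO-labelled libraries and 2.25 ± 0.46 FPKM in WT (−0.12 ± 0.12, limma adjusted p = 0.497).

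Both genes of the oxidative relay were called lower. Gfer (chromosome 17, 24693187 to 24696156, minus strand), the sulfhydryl oxidase that recharges the relay, stood at 7.12, 6.57, 5.89 and 6.17 FPKM in the KO-labelled libraries and at 11.2, 11.2, 9.49 and 10.9 FPKM in WT. It had the smallest adjusted p among the members, with no overlap (−0.69 ± 0.08, limma adjusted p = 0.00068). Chchd4, the receptor that passes disulfides to incoming proteins, stood at 1.36, 1.16, 1.30 and 1.38 FPKM in the KO-labelled libraries and at 1.97, 2.27, 1.71 and 1.97 FPKM in WT. These groups too were apart (−0.46 ± 0.10, limma adjusted p = 0.0095), and the call was lost after scaling to equal sums (−0.30, adjusted p = 0.0766), as it was when WT1 and WT2 were left out (−0.38, limma adjusted p = 0.0956). Gfer kept its own after scaling (−0.45, limma adjusted p = 0.0042).

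**Figure D2:**
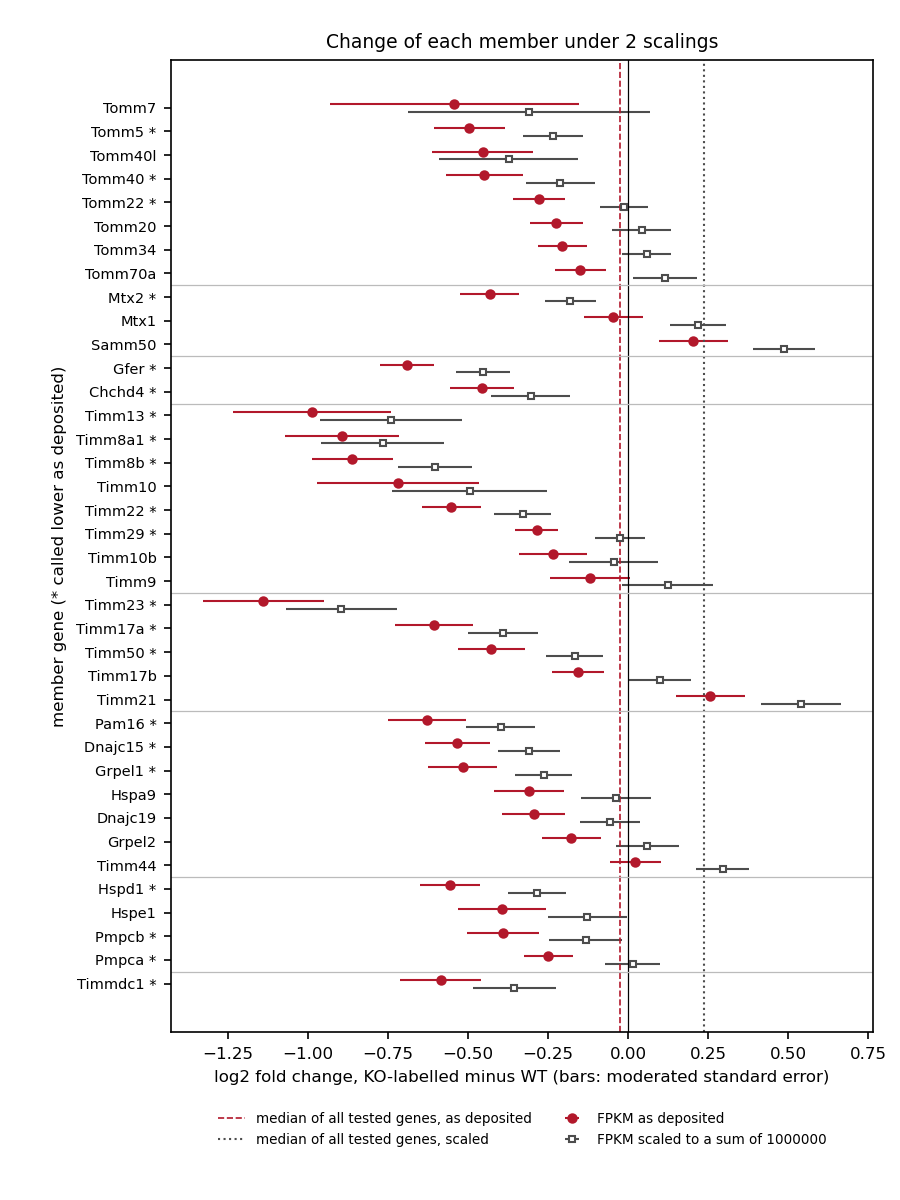
Log2 fold change, KO-labelled minus WT, of each tested member on log2(FPKM + 0.5), with limma's moderated standard error as bars, for FPKM as deposited (filled circles) and FPKM scaled to a sum of 1000000 in each library (open squares). The dashed and dotted lines mark the medians of all tested genes, −0.02 and 0.24, and most members lie to the left of the line that belongs to their symbol.

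The import motor combines mortalin with its J proteins and nucleotide exchange factors. Hspa9, which encodes mortalin, was the most abundant member of the motor and stood at 49.4, 50.5, 50.5 and 62.2 FPKM in the KO-labelled libraries and at 65.2, 62.5, 75.9 and 60.3 FPKM in WT. KO4 stood apart from the other KO-labelled libraries and reached into the WT range, and Hspa9 was not called (−0.31 ± 0.11, limma adjusted p = 0.061). It was called without KO4 (−0.39, limma adjusted p = 0.0243), with array weights (−0.34, adjusted p = 0.0224) and with voom (−0.31, adjusted p = 0.0485). Pam16, which holds the J protein in check, stood at 5.19, 4.62, 4.0 and 5.89 FPKM in the KO-labelled libraries and at 8.41, 8.04, 8.29 and 6.65 FPKM in WT, without overlap (−0.63 ± 0.12, limma adjusted p = 0.0058). Without WT1 and WT2 its call was lost (−0.56, limma adjusted p = 0.0739). In the annotation, 455 of its 2435 exonic bases also belong to Glis2 on the opposite strand. Timm44, which anchors mortalin at the channel, averaged 7.86 ± 0.52 FPKM in the KO-labelled libraries and 7.74 ± 0.62 FPKM in WT (0.02 ± 0.08, limma adjusted p = 0.852).

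The J proteins and the exchange factors each come as a pair of related genes. Dnajc15 stood at 4.03, 3.34, 3.82 and 4.15 FPKM in the KO-labelled libraries and at 6.48, 6.30, 5.17 and 5.20 FPKM in WT (−0.53 ± 0.10, limma adjusted p = 0.0053; −0.40 and 0.0596 without WT1 and WT2, where the call was lost). Dnajc19 stood at 3.71, 3.21, 3.46 and 3.76 FPKM in the KO-labelled libraries and at 4.69, 5.14, 4.28 and 3.77 FPKM in WT. Neither gene's groups overlapped, though KO4 and WT4 lay side by side for Dnajc19, which was not called (−0.30 ± 0.10, limma adjusted p = 0.052). It was called without WT4 (−0.37, limma adjusted p = 0.0187), with array weights (−0.35, adjusted p = 0.0123) and with a filter at a mean of 1 FPKM (−0.30, adjusted p = 0.0482). Grpel1, one of the 2 genes with the NRF1 core, stood at 9.19, 8.16, 8.11 and 9.80 FPKM in the KO-labelled libraries and at 13.9, 14.8, 11.4 and 11.5 FPKM in WT, without overlap (−0.52 ± 0.11, limma adjusted p = 0.0082). The Grpel1 call was lost without WT1 and WT2 (−0.36, limma adjusted p = 0.0757) and when scaled to reads in listed genes (−0.28, adjusted p = 0.0502). Grpel2 stood at 2.68, 2.34, 2.11 and 2.43 FPKM in the KO-labelled libraries and at 3.04, 2.87, 2.47 and 2.69 FPKM in WT. Its groups overlapped and it was not called (−0.18 ± 0.09, limma adjusted p = 0.175; 0.06 after scaling to equal sums).

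In the matrix, Hspd1, which encodes HSP60, stood at 48.6, 46.9, 44.9 and 54.5 FPKM in the KO-labelled libraries and at 77.6, 66.3, 76.0 and 67.5 FPKM in WT. It was the most abundant member in WT, and the groups lay well apart (chromosome 1, 55077835 to 55088243, minus strand; −0.56 ± 0.09, limma adjusted p = 0.0032). The pseudogenes Hspd1-ps4 and Hspd1-ps3 may share reads with Hspd1 and are named here after their values were seen. Hspd1-ps4 averaged 4.16 ± 0.61 FPKM in the KO-labelled libraries and 8.73 ± 1.61 FPKM in WT (−0.98, limma adjusted p = 0.00146). Hspd1-ps3 averaged 2.30 ± 0.44 FPKM in the KO-labelled libraries and 2.25 ± 1.01 FPKM in WT and was not called (0.08, limma adjusted p = 0.827). Sharing of reads was not tested. Hspe1, the co-chaperonin read from the same stretch of promoter in the other direction, averaged 21.0 ± 3.29 FPKM in the KO-labelled libraries and 27.7 ± 3.70 FPKM in WT. Its groups overlapped and it missed the threshold (−0.39 ± 0.14, limma adjusted p = 0.0577), which it passed without KO1 (limma adjusted p = 0.0407), without WT3 (0.0390), with array weights (0.0172) and with voom (0.0436). In the annotation, 112 exonic bases at the shared start belong to both genes.

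The 2 subunits of the presequence peptidase were called by a small margin. Pmpca stood at 10.3, 9.75, 9.43 and 10.9 FPKM in the KO-labelled libraries and at 12.3, 11.1, 13.0 and 12.0 FPKM in WT, where KO4 and WT2 nearly met (−0.25 ± 0.08, limma adjusted p = 0.0376). Pmpcb stood at 8.75, 8.51, 9.38 and 11.1 FPKM in the KO-labelled libraries and at 14.0, 11.6, 13.6 and 10.9 FPKM in WT, with KO4 above WT4 (−0.39 ± 0.11, limma adjusted p = 0.0294). The call was lost in 6 of the 8 fits that left out 1 library for Pmpca (without KO1, KO2, KO3, WT1, WT3 or WT4, highest adjusted p = 0.104) and in 5 for Pmpcb (without KO1, KO2, KO3, WT1 or WT3, highest adjusted p = 0.0838). Neither was called after scaling to equal sums, with Pmpca at 0.01 and Pmpcb at −0.13, or without WT1 and WT2 (limma adjusted p = 0.0933 for Pmpca and 0.152 for Pmpcb).

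Of the 8 tested genes of the TOM complex and its receptors 3 were called lower. Tomm5, a small subunit of the pore complex, stood at 15.9, 14.8, 11.8 and 13.7 FPKM in the KO-labelled libraries and at 21.1, 22.4, 17.7 and 18.8 FPKM in WT, without overlap (−0.50 ± 0.11, limma adjusted p = 0.0108). Tomm40, the pore itself, stood at 5.51, 4.95, 3.78 and 4.78 FPKM in the KO-labelled libraries and at 6.90, 7.64, 5.91 and 6.17 FPKM in WT, again without overlap (−0.45 ± 0.12, limma adjusted p = 0.0227). Tomm22, the central receptor, stood at 15.2, 15.2, 13.7 and 17.1 FPKM in the KO-labelled libraries and at 18.3, 19.9, 18.2 and 18 FPKM in WT. KO4 and WT4 were close, and the fall was small (−0.28 ± 0.08, limma adjusted p = 0.0331). The calls of Tomm40 (without KO3, WT1 or WT2, highest adjusted p = 0.0634) and Tomm22 (without KO1, KO2, KO3, WT1, WT2 or WT3, highest adjusted p = 0.0898) were lost when 1 library was left out. None of the 8 tested TOM genes was called after scaling to equal sums, where Tomm22 was at −0.01, or without WT1 and WT2, where Tomm5 was at −0.38 (limma adjusted p = 0.111), Tomm40 at −0.33 (0.187) and Tomm22 at −0.24 (0.194).

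The other 5 tested TOM genes were not called. The receptor genes Tomm20 (12.7 ± 1.25 FPKM in the KO-labelled libraries, 14.9 ± 0.67 FPKM in WT) and Tomm70a (6.82 ± 0.40 FPKM in the KO-labelled libraries, 7.63 ± 0.70 FPKM in WT) overlapped between groups, as did Tomm34, a cytosolic partner of the receptors (8.81 ± 0.37 FPKM in the KO-labelled libraries, 10.3 ± 0.86 FPKM in WT). Each of these 3 turned to a small positive value after scaling to equal sums, between 0.04 and 0.11. As deposited, Tomm20 was called lower without KO4 (limma adjusted p = 0.0333), Tomm34 without WT4 (0.0307) and Tomm40l without KO1 (0.0403), besides the fits with array weights or voom named above. Tomm40l, a second form of the pore, averaged 0.86 ± 0.27 FPKM in the KO-labelled libraries and 1.34 ± 0.17 FPKM in WT, and 3304 of its 5135 exonic bases also belong to Nr1i3 on the opposite strand, which stood at 0.397 FPKM at most. Tomm7, a small subunit, had the largest standard error of the members, with values from 3.38 to 12.8 FPKM in the KO-labelled libraries and from 6.71 to 13.7 FPKM in WT (−0.54 ± 0.39, limma adjusted p = 0.318). Tomm6 lay between 0 and 0.183 FPKM, and 859 of its 1131 exonic bases belong to Gm21981 as well.

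In the SAM complex 1 of 3 genes was called. Mtx2, a metaxin on the cytosolic face, stood at 8.40, 7.08, 6.88 and 7.44 FPKM in the KO-labelled libraries and at 11.3, 10.9, 9.41 and 9.32 FPKM in WT, without overlap (−0.43 ± 0.09, limma adjusted p = 0.0093). Its call was lost after scaling to equal sums (−0.18, limma adjusted p = 0.104) and without WT1 and WT2 (−0.32, limma adjusted p = 0.0968). Mtx1, its partner, stood at 4.43, 3.77, 3.51 and 4.23 FPKM in the KO-labelled libraries and at 4.01, 4.65, 3.91 and 3.94 FPKM in WT. Those values were interleaved (−0.05 ± 0.09, limma adjusted p = 0.73), and the sign turned after scaling to equal sums (0.22). Samm50, the barrel that does the insertion, averaged 7.65 ± 0.63 FPKM in the KO-labelled libraries and 6.61 ± 1.01 FPKM in WT (0.20 ± 0.11, limma adjusted p = 0.183), and it was called higher without WT2 (0.30, adjusted p = 0.0388). Timmdc1, a complex I assembly factor related to the TIM proteins, stood at 4.85, 4.55, 4.26 and 4.30 FPKM in the KO-labelled libraries and at 9.15, 6.55, 5.77 and 6.84 FPKM in WT. The groups did not overlap, with WT1 highest (−0.59 ± 0.13, limma adjusted p = 0.0094), and the call was lost after scaling to equal sums (−0.36, limma adjusted p = 0.0562).

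To set related or partnered genes beside each other within a library, 8 pairs were compared as log2 ratios of FPKM + 0.5. The added 0.5 pulls ratios with a low gene towards 0, so the same ratios were also taken from FPKM with nothing added, a choice made after the data were seen, and these do not depend on a library's scaling. Timm17a over Timm17b averaged −0.15 ± 0.14 in KO-labelled libraries, against 0.30 ± 0.19 in WT (SD, n = 4 each). Grpel1 over Grpel2 averaged 1.69 ± 0.10 in KO-labelled libraries, against 2.03 ± 0.11 in WT. Dnajc15 over Dnajc19 averaged 0.10 ± 0.04 in KO-labelled libraries, against 0.34 ± 0.10 in WT. Mtx1 over Mtx2 averaged −0.83 ± 0.06 in KO-labelled libraries, against −1.21 ± 0.12 in WT. In these 4 pairs the groups did not overlap, each with an exact two-sided permutation p of 0.0286, the smallest that 4 against 4 allows, and 0.0571 adjusted over the 8 pairs. No pair passed the threshold after adjustment, and 4 pairs at this smallest p could not have passed it. The adjusted p depends on how many of the 8 pairs reach the smallest p, so missing the threshold is no result about any 1 pair. With nothing added to FPKM the same 4 pairs did not overlap, with differences of −0.50, −0.33, −0.26 and 0.41 and the same exact permutation p and adjusted p.

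The other 4 pairs overlapped between groups. Hspd1 over Hspe1 differed by −0.16 (exact permutation p = 0.343), Pmpca over Pmpcb by 0.14 (p = 0.143 in the same exact test), Timm8a1 over Timm8b by −0.03 (exact p = 0.943) and Tomm40 over Tomm40l by 0.01 (exact p = 1). Tomm40 over Tomm40l was the pair whose result hung most on 1 library, since KO4 lay at 2.29 and the other 3 KO-labelled libraries between 1.79 and 1.90, below all of WT (1.92 to 1.99). That gap came with the added 0.5. With nothing added, this pair lay at 2.31, 2.20, 2.50 and 3.04 in KO1 to KO4, around the WT range of 2.28 to 2.34. Without KO4, 5 pairs passed the threshold on FPKM + 0.5 (exact permutation test, adjusted p = 0.0457) and 0 with nothing added (lowest adjusted p = 0.0571).

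**Figure D3:**
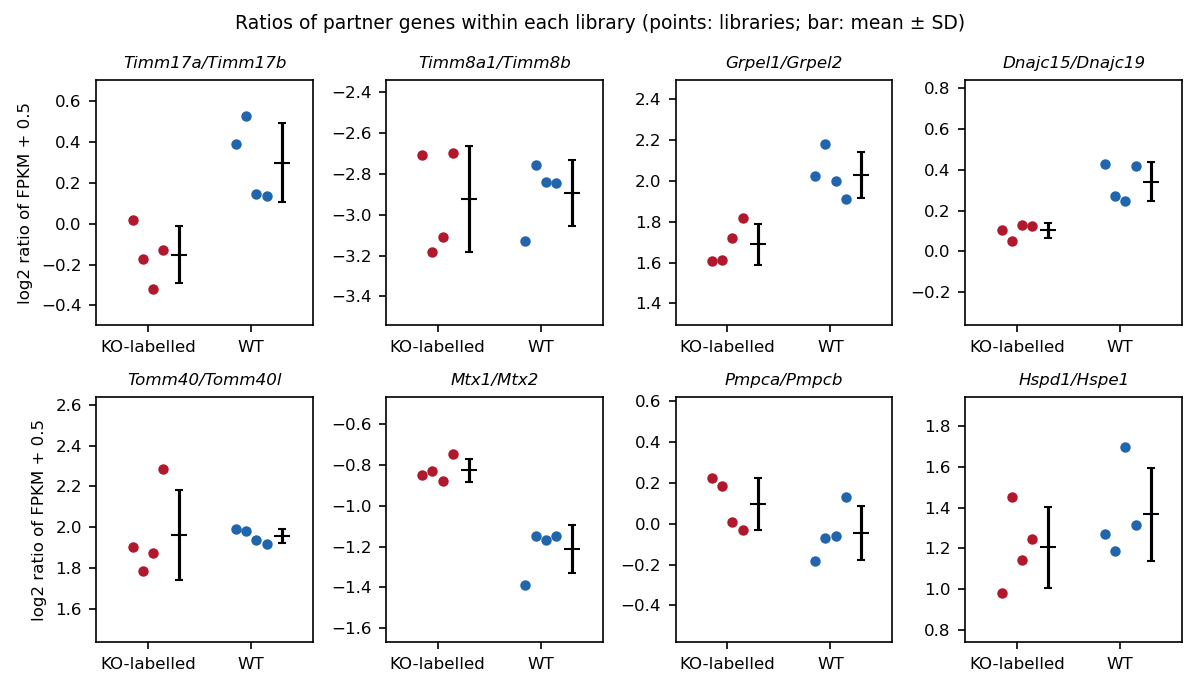
Log2 ratio of FPKM + 0.5, the first gene over the second, in each library for the 8 pairs, KO-labelled on the left and WT on the right of each panel, with the mean and SD over 4 libraries beside the points. Timm17a/Timm17b, Grpel1/Grpel2 and Dnajc15/Dnajc19 lie lower in all 4 KO-labelled libraries, Mtx1/Mtx2 lies higher, and the other 4 pairs overlap.

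Other nuclear genes for mitochondrial proteins were set beside the import genes. Of 82 tested subunits of oxidative phosphorylation 43 were called lower and 0 higher, with a median log2 fold change of −0.45. That is 52.4% of them, against 18.6% of all tested genes. After scaling to equal sums 15 (18.3%) were lower and 2 (2.44%) higher, against 8.26% and 29.3% of all tested genes. Without WT1 and WT2 the counts were 4 lower (4.88%) and 0 higher, against 7.19% and 5.01% of all tested genes. Of 79 tested mitochondrial ribosomal proteins 34 (43.0%) were called lower and 0 higher, with a median of −0.30. Their counts were 13 lower (16.5%) and 6 higher (7.59%) after scaling, and 10 lower (12.7%) and 0 higher without WT1 and WT2. The shares of all tested genes in these fits were those just given. The import genes, with 21 of 38 called lower and a median of −0.43, lay near both sets, and the differences between the sets were not tested. By library, the members' median relative to the mean of the 8 libraries was −0.14, −0.22, −0.27 and −0.09 in the KO-labelled libraries and 0.30, 0.29, 0.11 and 0.10 in WT. KO3 was lowest and KO4 highest among the KO-labelled libraries, WT1 and WT2 were highest in WT, and the groups did not overlap.

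**Figure D4:**
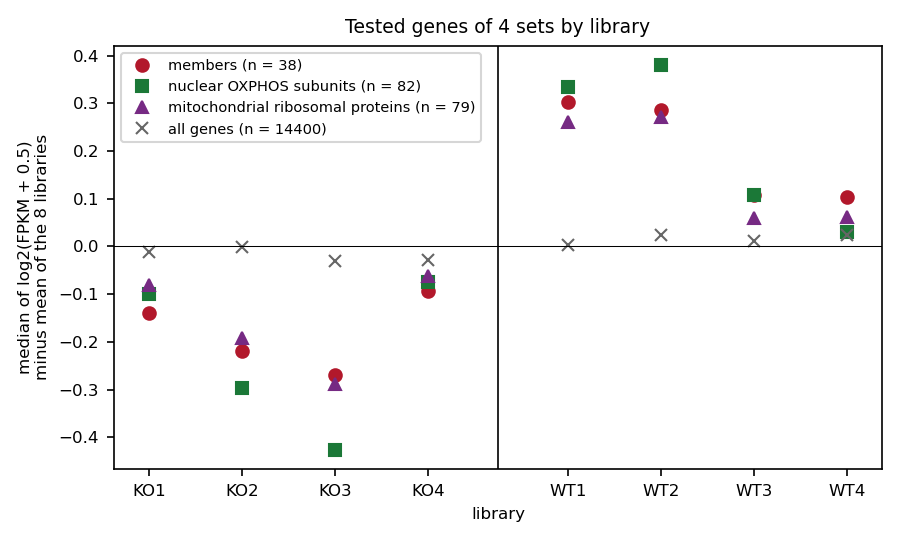
Median of log2(FPKM + 0.5), relative to the mean of the 8 libraries, over the tested members, nuclear subunits of oxidative phosphorylation, mitochondrial ribosomal proteins and all tested genes in each library. The 3 mitochondrial sets follow each other from library to library, with KO3 lowest and WT1 and WT2 highest, while all genes stay between −0.03 and 0.02.

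Among the members, short genes had the larger falls. The Spearman correlation of summed exon length with the log2 fold change was 0.52 over the 38 tested members and 0.08 over 14386 genes, a description across genes of the same libraries. The 7 members with under 1500 exonic bases (Timm8b, Timm10, Tomm5, Tomm7, Timm13, Timm8a1 and Hspe1) had a median of −0.72, and 4 of them were called lower. The 31 longer members had a median of −0.31, and 17 were called lower. The called shares of short and long members lay close, at 57.1% and 54.8%. Over all tested genes under 1500 bases the median was −0.04 and 14.4% were called lower, and over those of 1500 bases or more −0.02 and 19.5%. The short members also varied most between libraries: their median lay at −0.07, −0.45, −0.83 and −0.28 in the KO-labelled libraries and at 0.55, 0.45, 0.09 and 0.17 in WT.

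**Figure D5:**
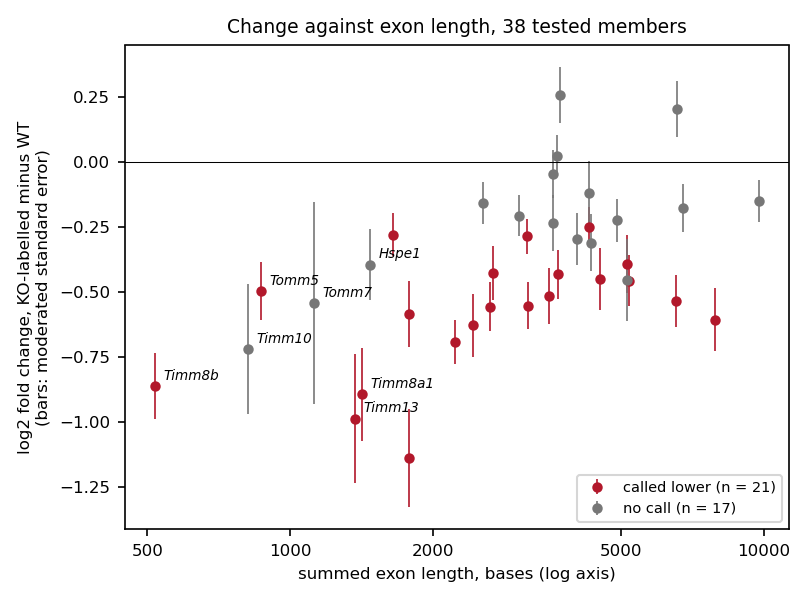
Log2 fold change, KO-labelled minus WT, with limma's moderated standard error, against summed exon length on a log axis for the 38 tested members. The 7 members under 1500 bases are named and lie between −0.99 and −0.39.

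Around the import route, 46 further genes were tested: inner-membrane insertion and processing, proteases and chaperones, the MICOS complex that shapes cristae, cytosolic chaperones and stress regulators. Of these 12 (26.1%) were called lower and 4 (8.7%) higher, against 18.6% and 11.7% of all tested genes. Their median log2 fold change was −0.22. After scaling to equal sums 6 (13.0%) were lower and 9 (19.6%) higher, against 8.26% and 29.3% of all tested genes, with a median of 0.04. Without WT1 and WT2 3 (6.52%) were lower and 1 (2.17%) higher, against 7.19% and 5.01% of all tested genes. The 8 with the smallest adjusted p all fell. Phb, a prohibitin of the inner membrane, averaged 18.5 ± 1.12 FPKM in the KO-labelled libraries and 33.2 ± 4.56 FPKM in WT (−0.82, limma adjusted p = 0.00091). Stip1, which bridges cytosolic HSP70 and HSP90, changed by −0.63 (adjusted p = 0.0017, limma), and the matrix protease gene Lonp1 by −0.59 (adjusted p = 0.0046, limma). Spg7, of an inner-membrane protease, changed by −0.38 (adjusted p = 0.0191, limma). Of the 7 MICOS genes 4 were called lower, with falls of 0.63 for Minos1, 0.61 for Apoo, 0.55 for Chchd3 and 0.50 for Chchd6 on the log2 scale. The other 3 had negative changes without a call: 2410015M20Rik (−0.70, limma adjusted p = 0.0758), Immt (−0.345, adjusted p = 0.0884) and Apool (−0.29, adjusted p = 0.0911). After scaling to equal sums Spg7 (limma adjusted p = 0.251) and Chchd6 (0.123) lost their calls, and without WT1 and WT2 0 of the 7 MICOS genes were called.

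The 4 genes called higher were Ppargc1a and Tfam, regulators of mitochondrial gene expression, and Hscb and Htra2, a cochaperone of iron-sulfur cluster assembly and a protease. Ppargc1a averaged 0.841 ± 0.15 FPKM in the KO-labelled libraries and 0.422 ± 0.119 FPKM in WT (0.54, limma adjusted p = 0.0306). Tfam averaged 4.47 ± 0.12 FPKM in the KO-labelled libraries and 3.52 ± 0.50 FPKM in WT (0.31, limma adjusted p = 0.0379). These 4 were chosen for mention after their values were seen. Each of the 8 fits that left out 1 library called only 0 to 2 genes of this list higher, against 7.56% to 13.5% of all tested genes. The count of 12 lower fell to 7 without KO2, KO3 or WT1, where 14.2%, 12.9% and 13.0% of all tested genes were called lower. The stress regulators Atf4, Atf5 and Ddit3, also named after the fact, were not called as deposited. Atf4 was at 28.6 ± 5.02 FPKM in the KO-labelled libraries and 28.6 ± 2.77 FPKM in WT. After scaling to equal sums Ddit3 was called higher (0.39, limma adjusted p = 0.0338), as were 29.3% of all tested genes. Atf4 (0.26, limma adjusted p = 0.164) and Atf5 (0.30, limma adjusted p = 0.191) were not called there either.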

How the data were processed

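Poly(A) RNA from 8 libraries of mouse epididymal white fat, 4 KO-labelled and 4 WT, was measured after TRIzol isolation, oligo-dT capture, fragmentation and random-hexamer priming, per the labels' protocols. The submitters' processing notes name HISAT2 2.0.5, featureCounts and mm10. The strand setting and the annotation release are not given in the sources used here. As their processed data, the authors deposited FPKM values for 28295 genes, and 28255 of the IDs matched GENCODE M21, the source of exon lengths and of coordinates (mm10, 1-based).

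KO-labelled and WT libraries were compared on log2(FPKM + 0.5) by limma 3.58.1 under R 4.3.3 (trend, robust moderation, no covariate, two-sided). The 14400 genes averaging at least 0.5 FPKM entered the Benjamini-Hochberg adjustment, and calls needed an adjusted p under 0.05. The pseudocount shrinks the fold changes of genes with low FPKM. Errors are SDs over libraries for levels and ratios, and limma's moderated standard errors for log2 fold changes. Gene ratios went through an exact two-sided permutation test over the 8 libraries, adjusted over 8 pairs. Between 0.5 and 200 reads, 97.9% of the FPKM values lay within 0.02 of a whole number of reads, which gave each library's depth.

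The members, lists, pairs and tests were chosen with earlier results of these data known. Every library's value is given for called members up to 4 per role by adjusted p, for members called higher as deposited, for pairs with an exact p under 0.05 and for each role's member with the highest mean. The other members are given by means or ranges. Of the wider list, the 8 called genes with the smallest adjusted p are named. Promoter sequences are RefSeq's (GRCm38.p6).

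The alternatives tried were 2 pseudocounts, 2 filters, 3 scalings, limma with neither trend nor robust moderation, array weights, the replicate number as a block, omission of each library, and omission of WT1 with WT2. Scaling to reads in listed genes, voom on the recovered reads, gene ratios with no pseudocount, and omission of KO1, WT1 and WT2 were chosen after the data were seen. The main limma fit was run on simulated data with normal noise and 200 changed genes, and the alternative fits were not. Other software was Python 3.11.15 with scipy 1.17.1, pandas 2.3.3, numpy 2.4.6 and matplotlib 3.10.9.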

Additional observations from a re-analysis of the deposited data

Results flagged for a closer look

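In 80 groups of 4 libraries (each member in each group), 4 had a library far from its 3 companions by Dixon's criterion, and chance alone gives about 1 in 20. Hspa9, the gene of mortalin, was at 62.2 FPKM in KO4 and between 49.4 and 50.5 FPKM in the other KO-labelled libraries. Timm10b was at 1.39 FPKM in KO2 and between 1.08 and 1.13 FPKM in the other KO-labelled libraries. In WT2, Tomm22 was at 19.9 FPKM, with 18 to 18.3 FPKM in the other WT libraries, and Mtx1 was at 4.65 FPKM, with 3.91 to 4.01 FPKM in the other WT libraries. Without KO4 Hspa9 was called lower (−0.39, limma adjusted p = 0.0243), without WT2 Tomm22 was not (−0.25, limma adjusted p = 0.0826), and without WT2 the change of Mtx1 was 0.01 (limma adjusted p = 0.968). WT2 is also the library with the most liver transcripts, and a link between these and its 2 flagged values was not tested.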

How the results depend on the processing

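Over 22 alternatives, the members' median log2 fold change stayed below that of all tested genes by 0.29 to 0.47, and Gfer, Timm8b, Timm22 and Timm23 were called lower in each. The median was −0.17 scaled to equal FPKM sums, −0.19 scaled to reads in listed genes, −0.32 under quantile normalization and −0.32 without WT1 and WT2. Members called lower numbered 11 and 10 under the 2 scalings to sums or listed reads, 6 without WT1 and WT2, and 6 without KO1, WT1 and WT2. The shares of all tested genes called lower in these fits were 8.26%, 8.8%, 7.19% and 5.26%. Under both scalings 3 members were called higher, against 29.3% and 29.2% of all tested genes. Leaving out 1 library gave 16 to 23 members called lower, 0 to 1 called higher and medians from −0.48 to −0.37. Those fits called 12.9% to 19.5% of all tested genes lower and 7.56% to 13.5% higher. Cul3 was called higher under both scalings, at 0.37 and 0.34.

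No pairing by replicate number was seen: same-numbered libraries had correlations of −0.06, −0.13, 0.17 and −0.32 in their deviations from the group means. Differently numbered libraries ran from −0.23 to 0.21. So few correlations cannot exclude a pairing. With the replicate number as a block, 18 members were called lower and 0 higher, and over all genes 1995 lower and 1113 higher.

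Of the wider list, genes called higher numbered 9 under both scalings, 1 without a filter, 1 with the replicate block, 1 without WT1 and WT2, 0 without KO1, WT1 and WT2, and 0 to 2 with 1 library left out. In the same order, the shares of all tested genes were 29.3% and 29.2%, 5.4%, 7.73%, 5.01%, 3.94%, and 7.56% to 13.5%. Genes called lower numbered 6 under both scalings, 21 with array weights, 3 without WT1 and WT2, 3 without KO1, WT1 and WT2, and 7 to 16 with 1 library left out. For these, the shares of all tested genes were 8.26% and 8.8%, 23.4%, 7.19%, 5.26%, and 12.9% to 19.5%.

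Some uncalled or barely called members changed sign. Scaled to equal sums and to listed reads, the values were 0.060 and 0.033 for Grpel2, 0.22 and 0.18 for Mtx1, 0.098 and 0.071 for Timm17b, 0.12 and 0.090 for Timm9, 0.042 and 0.018 for Tomm20, 0.058 and 0.033 for Tomm34, and 0.11 and 0.087 for Tomm70a. Pmpca was at 0.015 scaled to equal sums. Without WT1 and WT2, Mtx1 was at 0.016 and Timm9 at 0.014, and without KO1 as well Timm9 was at 0.0034 and Timm44 at −0.0038. With 1 library left out, Mtx1 ran from −0.093 to 0.0066 and Timm44 from −0.016 to 0.067. Ratios changed sign for Timm8a1 over Timm8b (0.076 with a pseudocount of 1, and −0.11 to 0.055 with 1 library left out) and Tomm40 over Tomm40l (−0.074 with a pseudocount of 1, and −0.10 to 0.063 with 1 library left out). Pairs past the adjusted threshold numbered 0 to 5 with 1 library left out, the 5 being without KO4, where 0 passed with no pseudocount. The cause of the sign changes with libraries left out was not tested. Low read numbers limit Timm8a1, Timm10 and Tomm40l most, with as few as 43, 64 and 74 reads in a library.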
